A study of Mus musculus with 54 samples.

Results

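The step from day 2 to day 4 of differentiation in wild type (WT) mouse embryonic stem cells was examined here, in the window in which mesoderm and endoderm form. Its members were 6 arrays, chosen by title alone: 3 of WT embryoid bodies (EBs, the floating aggregates in which stem cells differentiate) at day 2 and 3 at day 4, of 54 arrays in the series. The cells were CGR8, a male embryonic stem cell line from mouse strain 129, with no vector in the WT line, and the EBs were made in hanging drops. The other 48 arrays held WT cells at days 0, 12, 15 and 22, and, over the same 6 time points, 2 polyclonal lines made from these cells with integrated shRNA vectors: SCR, which expresses a scrambled shRNA, and KD, whose shRNA is directed against Mageb16, a gene of the melanoma antigen family. The SCR and KD arrays of days 2 and 4, 3 for each line and day, are used below for comparison. All lines therefore share the CGR8 background and the hanging-drop protocol, while SCR and KD each carry an integrated shRNA vector. The labels number the arrays 1 to 3 within a group without saying that they are separate cultures, so the spread between them may be technical. The SEs and p-values rest on that spread pooled over all 18 groups of the series, not on the 6 WT arrays alone. Where the WT arrays of a gene spread more widely, as for Pou5f1 and Mesp1 at day 4, they understate its spread.

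Stem cells first leave the naive state, a ground state held by factors such as Klf2, Esrrb and Zfp42, and pass through a primed state like that of the epiblast, marked by Fgf5, Otx2 and Pou3f1. Nodal, Wnt and BMP signals then open the primitive streak, whose cells lose epithelial contacts and become mesoderm or definitive endoderm, while cells that escape these signals take the neural course. BMP also favours extraembryonic and lateral fates, and FGF signalling drives both the exit from the naive state and the migration out of the streak.

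The arrays measure a probe set's fluorescence, given as a log2 signal, so a difference of 1 is a 2-fold change. On the 6 arrays the median signal was 6 to 6.12 and the lower quartile 4.25 to 4.33; genes below that quartile are close to the background of the array, and a change that starts or ends there has no exact size. Arrays of a group correlated at 0.991 to 0.997, and the median SD of a probe set was 0.104 at day 2 and 0.115 at day 4. The third array of both groups lay closest to the other arrays: at day 4 its value fell between those of arrays 1 and 2 for 50.5% of the probe sets without ties and at day 2 for 42.7%, and it was the array most often in the middle in 17 of the 18 groups. For 3 exchangeable arrays the share would be 33.3%. In limma's array weights, whose fit stopped short of convergence, day 4 array 3 had 33.8 beside 0.68 and 1.06. If the third arrays are not independent of the others, the SDs, standard errors and p-values at n = 3 are too small, which was not tested. Counts without the third arrays are therefore given below. In bulk RNA, fewer cells of a type and less RNA per cell cannot be told apart. No 2 arrays were identical.

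Mageb16, the target of the shRNA in the KD line, checks the labels, and its level was read in every array of days 2 and 4. Its log2 signal was 9.02, 8.76 and 8.93 on the day 2 arrays and 7.16, 6.98 and 6.98 on the day 4 arrays of WT, a change of -1.86 ± 0.17, adjusted p = 1.9e-12. In SCR it was 9.99, 10.15 and 10.14 at day 2 and 9.75, 9.30 and 9.48 at day 4, above every WT array of the same day. In KD it was 5.64, 5.04 and 5.75 at day 2 and 4.05, 3.49 and 3.75 at day 4, below every WT and SCR array, as the labels require.

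Between day 2 and day 4 the WT EBs changed on a broad scale, with Aplnr, Rgs5 and Nrp1 at the head of the rises and Pou3f1, Ugt8a and Mael at the head of the falls. A gene was called at a limma adjusted p under 0.05 and a change of at least 2-fold, by the one probe set of the gene with the highest mean over all arrays. Of 14104 genes, 965 (6.84%) were called higher at day 4 and 1034 (7.33%) lower. Over all 30939 probe sets the counts were 2171 (7.02%) and 1766 (5.71%). Without the third arrays of all groups they were 2161 and 1781. The rises were the larger: 52 genes rose at least 16-fold and 7 fell as far, and 287 and 222 passed 4-fold. The 3 day 4 arrays did not overlap the 3 day 2 arrays in 963 of the 965 higher and 1032 of the 1034 lower genes. The calls were made on the same arrays, so this is no separate support, and the share over all genes was not counted. For 145 of the risen genes all day 2 arrays lay under the lower quartile, and for 199 of the fallen genes all day 4 arrays did, so that their folds have no exact size. The median change of all genes was -0.05 on the log2 scale.

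**Figure D1:**
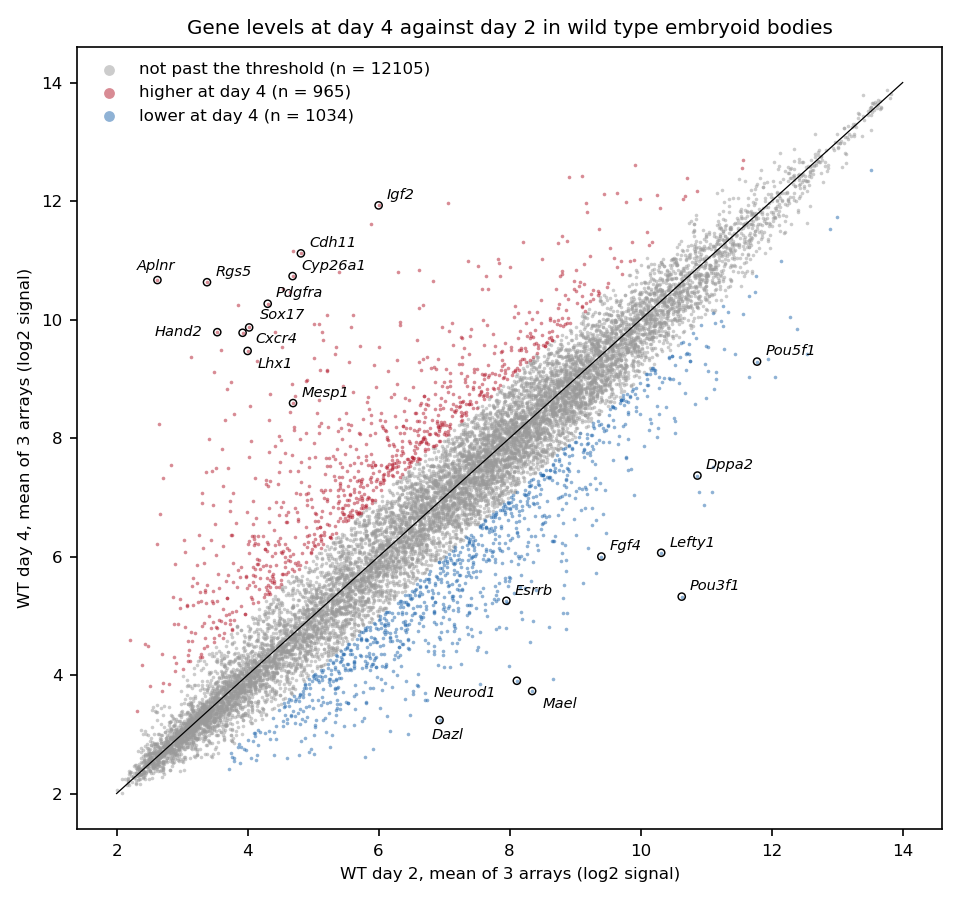
Each point is a gene, with the mean log2 signal of the 3 WT day 2 arrays on the horizontal axis and that of the 3 WT day 4 arrays on the vertical axis. Red points (965) were called higher and blue points (1034) lower at day 4, and the line marks equal levels. Aplnr, Rgs5 and Hand2 lie above the line at the left, near the background at day 2, and Pou3f1 lies farthest below it.

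The 12 largest rises included receptors and signalling proteins of mesodermal and vascular cells. Aplnr, the apelin receptor of early mesoderm and endothelium, had a log2 signal of 2.62, 2.61 and 2.64 on the day 2 arrays and 10.64, 10.61 and 10.75 on the day 4 arrays. That is a change of 8.04 ± 0.28 (SE), the largest of all genes, from a day 2 level under the lower quartile. Rgs5, a regulator of G protein signalling in mural cells, read 3.49, 3.35 and 3.3 at day 2 against 10.48, 10.72 and 10.69 at day 4, a change of 7.25. Nrp1, a co-receptor for VEGF and semaphorins, rose by 6.47 and all 4 of its probe sets were called. Ackr3, a scavenging receptor for the chemokine Cxcl12, rose by 5.97, and Pdgfra, the PDGF receptor of nascent mesoderm, by 5.96. Asb4, a substrate adaptor of a ubiquitin ligase, rose by 6.4. The other 6 were Cdh11 (6.3), a mesenchymal cadherin, Hand2 (6.25) and Tbx20 (6.24), transcription factors of heart progenitors, Cyp26a1 (6.05), which degrades retinoic acid, the growth factor Igf2 (5.93) and the ligand Wnt5a (5.9). The adjusted p of each of the 12 was at most 1.3e-22 by limma.

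Pou3f1, a POU factor of the epiblast and of neural progenitors, had a log2 signal of 10.84, 10.41 and 10.63 on the day 2 arrays and 5.65, 5.02 and 5.3 on the day 4 arrays, and it changed by -5.3 ± 0.23, adjusted p = 3.8e-22, the largest fall of all genes. It heads the 12 largest falls. Pim2, a kinase that promotes survival, fell by 4.1. Neural genes were Neurod1 (-4.21), Sox3 (-3.83) and the neurofilament gene Nefh (-3.84). Mael (-4.61), of the piRNA pathway, and Dmrt1 (-4.08), a sex-determining factor of the testis, belong to the germ line. Lefty1, the secreted inhibitor of Nodal, fell by 4.25. The others were Ugt8a (-4.72), which makes galactosylceramide, the carbonyl reductase Cbr3 (-4), the stress-induced chromatin protein Nupr1 (-3.8) and the efflux transporter Abcc4 (-3.79).

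The gene lists held 664 genes of known role, and each list is described by its counts and its median. Of these genes 575 were measured, that is, had a probe set annotated to them alone among the deposited values. The others were not analysed, which does not mean that the array lacks them. The shares of all genes, 6.84% higher and 7.33% lower, and their median of -0.05 are the background of every list count below. Among the brightest 60% of probe sets, where the lists lose the members of low signal, every call of a member that remained was kept, so that the counts are smaller there by construction, at 4 streak genes higher of 8 that remained and 6 germ-line genes lower of 7. Of 14 measured general pluripotency factors 9 were called lower (7.33% of all genes were) and 0 higher, with a median change of -1.74 beside -0.05 over all genes. Pou5f1, the POU factor that all pluripotent cells require, had a log2 signal of 11.79, 11.77 and 11.77 on the day 2 arrays and 9.91, 8.68 and 9.28 on the day 4 arrays. The groups did not overlap, and the change was -2.49 ± 0.21, adjusted p = 3e-13, or 5.6-fold lower. Sox2, its partner on DNA, read 11.23, 10.84 and 11.27 at day 2 against 8.72, 8.83 and 8.93 at day 4 and changed by -2.29 ± 0.14. Nanog, which stabilises self-renewal, changed by -1.25 ± 0.21, adjusted p = 2.7e-06. Larger falls were seen in Dppa2 (-3.5), Utf1 (-3.07), L1td1 (-3.01) and Gdf3 (-2.75). Sall4 (0.18 ± 0.13) and Lin28a (-0.04 ± 0.11), both of which act beyond the pluripotent state, did not pass the test. At day 4 Pou5f1 still had a mean signal of 9.29, far above the array's median.

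Of 17 naive factors 10 fell and 2 rose, with a median of -1.12. Nr0b1, a repressor tied to the naive network, changed by -3.06 ± 0.21, the orphan receptor Esrrb by -2.7 ± 0.22, Klf2 by -2 ± 0.18, and Zfp42, better known as Rex1, by -1.65 ± 0.18. Tcl1 (-1.72), Jam2 (-1.72) and Tfcp2l1 (-1.37) fell too. Klf4, at 0.16 ± 0.23, and Dppa3, at 0.45 ± 0.21, were not called. Tbx3 went the other way, reading 7.86, 7.23 and 7.68 at day 2 against 9.9, 10.05 and 10.04 at day 4, a change of 2.41 ± 0.19, adjusted p = 3.1e-14. This T-box factor belongs to the naive network and also to early mesoderm and endoderm. Lifr, the receptor of the cytokine LIF, rose by 1.09. Without day 2 array 2 Lifr no longer passed, which leaves 1 naive factor called higher. Both Zfp42 and Tbx3 already read lower at day 2 than at day 0: Zfp42 had 12.07 on average at day 0 and 10.58 at day 2, and Tbx3 10.57 and then 7.59.

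Of 14 primed factors 9 fell and 2 rose, with a median of -1.78. Fgf5, the growth factor that marks the formative epiblast, read 8.94, 9.13 and 9.25 at day 2 against 7.66, 6.53 and 7.22 at day 4, a change of -1.97 ± 0.22, adjusted p = 5.3e-10. Its mean at day 0 had been 3.89, so day 2 was the highest of these 3 time points. The day 2 to day 0 comparison uses the same day 2 arrays, and its change was 5.21. Otx2, the homeodomain factor that directs the primed state, had means of 7.38, 10.24 and 8.01 at days 0, 2 and 4, a day 4 to day 2 change of -2.23 ± 0.24. Zic2 (-2.41) and Sall2 (-2.12) also fell. Lef1, a nuclear partner of beta-catenin, rose by 1.46, and the surface antigen gene Cd24a by 1.68. Fzd2 (0.42 ± 0.14) and Fgf15 (-0.09 ± 0.23) were not called.

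**Figure D2:**
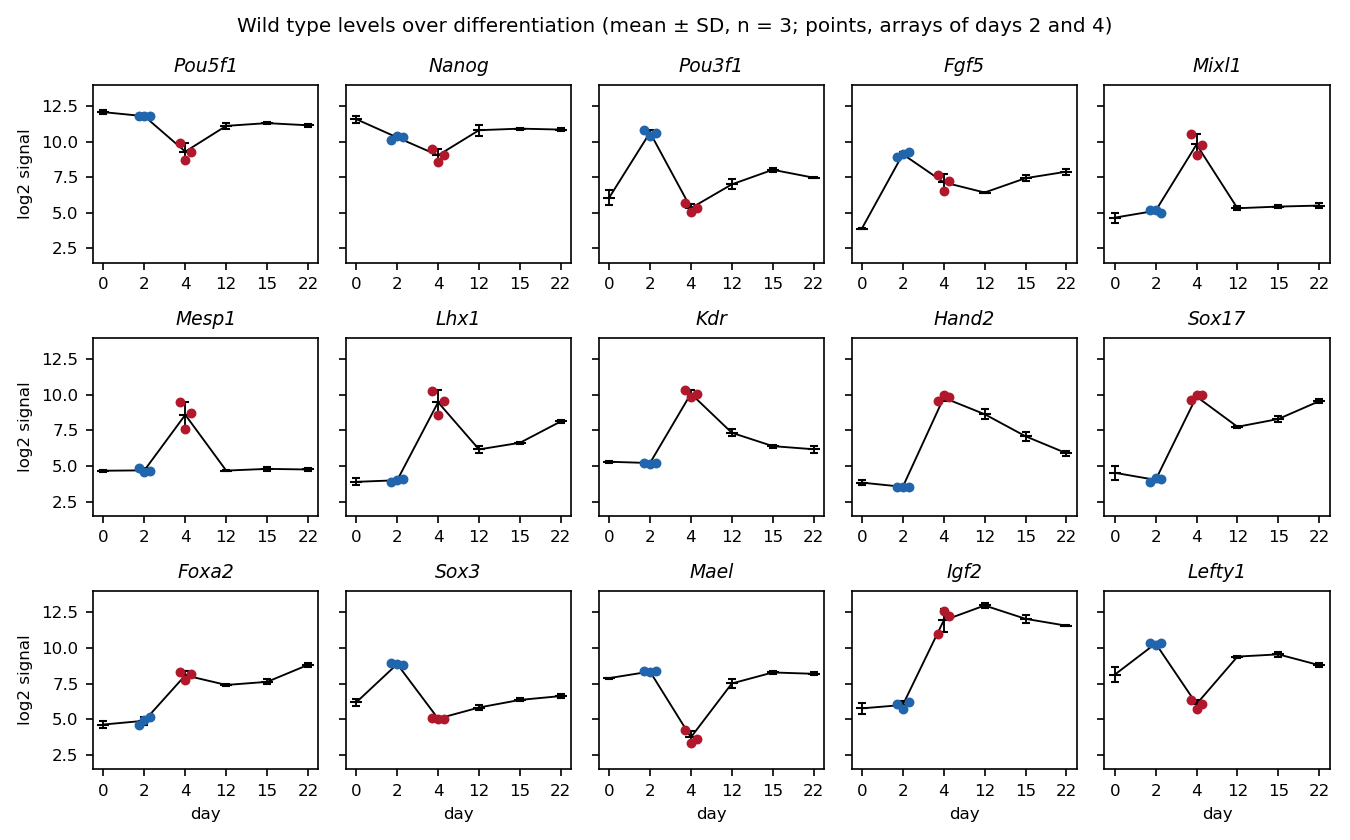
Log2 signal on the vertical axis against day of differentiation for 15 genes in WT EBs, as the mean ± SD of 3 arrays, with the single arrays of day 2 (blue) and day 4 (red) as points. Pou5f1, Nanog, Mael and Lefty1 had their lowest mean at day 4 and read higher again from day 12, while Mixl1, Mesp1, Kdr and Lhx1 had their highest mean at day 4.

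Several of these genes read higher again at day 12. Pou5f1 had a mean of 9.29 ± 0.62 (SD, n = 3) at day 4 and of 11.1 ± 0.19 at day 12, and Sox2 of 8.83 ± 0.11 and 11.28 ± 0.13. Nodal went from 7.48 to 9.41. The day 12 against day 4 comparison uses the same day 4 arrays, and its limma changes were 1.81 for Pou5f1, 2.46 for Sox2 and 1.93 for Nodal.

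Of 19 listed genes of the primitive streak 17 were measured, of which 10 were called higher and 2 lower, with a median change of 2.13. The mean log2 signal of the list was 6.02 to 6.11 on the day 2 arrays and, with a wider spread, 7.29 to 8.39 on the day 4 arrays. Mixl1, a homeobox factor of the streak, read 5.22, 5.22 and 4.98 at day 2 against 10.55, 9.04 and 9.78 at day 4, a change of 4.65 ± 0.24, adjusted p = 1.1e-19. Mesp1, which starts the cardiac mesoderm, read 4.85, 4.57 and 4.66 at day 2 against 9.46, 7.61 and 8.7 at day 4, a change of 3.9 ± 0.22, adjusted p = 9.3e-19. For both genes day 4 array 1 was the highest and array 2 the lowest, with the third between them. Lhx1, a LIM factor of the node and anterior mesendoderm, showed the same order with 3.9, 4.01 and 4.09 on the day 2 arrays and 10.29, 8.58 and 9.54 on the day 4 arrays, a change of 5.47 ± 0.31. Evx1 (4.65 ± 0.2), a target of BMP in the posterior streak, Cdx2 (3.47 ± 0.19), a posterior factor, and Eomes (3.1 ± 0.25), the T-box factor needed for mesoderm exit and endoderm, rose as well. Gsc, the organiser gene, read 2.69, 2.93 and 2.97 at day 2 against 5.99, 4.58 and 5.39 at day 4 and changed by 2.46 ± 0.25, adjusted p = 3.1e-11, from under the lower quartile. Snai1 (2.13), Sp5 (2.74) and Wnt3 (1.93) also rose. T, or Brachyury, a marker of the streak, was not among the members called in either direction, and no value for it is given here.

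The streak members that fell were ligands, Nodal (-2.37 ± 0.12) and Wnt8a (-1.98 ± 0.23). Fgf8 (0.67 ± 0.29) had a large spread and was not called, with 6.27, 6.88 and 6.53 on the day 2 arrays and 8.1, 6.3 and 7.28 on the day 4 arrays. Day 4 array 2 lay among the day 2 arrays, as array 2 did at the low end of the streak genes above, and the adjusted p was 0.051. Fst (-0.35 ± 0.29) and Tdgf1 (-0.62 ± 0.28) were not called either. In Igf2, Tbx20 and Krt8, described with their own groups, the order was turned and array 1 was the lowest of the day 4 arrays.

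Of 10 paraxial genes 3 were higher and 2 lower, with a median of 0.35. Rspo3, a Wnt agonist of the presomitic mesoderm, rose by 4.25, and the forkhead genes Foxc1 and Foxc2 by 2 and 1.92. Tbx6, which sets the paraxial fate, was near background, with 3.25, 3.09 and 3.06 on the day 2 arrays and 3.88, 3.33 and 3.3 on the day 4 arrays and a change of 0.37 ± 0.15, adjusted p = 0.036. The Notch ligand Dll1 changed by -1.26 ± 0.24 and Tcf15, a factor of the somites and of early epiblast, by -2.1 ± 0.13. Without day 4 array 2 the fall of Dll1 no longer passed.

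Most regulators of the lateral plate and of cardiac mesoderm rose, 12 of 19, with 1 lower and a median of 2.08. Hand2, a bHLH factor of the heart field and limb, had a log2 signal of 3.56, 3.54 and 3.51 on the day 2 arrays and 9.53, 10 and 9.83 on the day 4 arrays and a change of 6.25 ± 0.19, adjusted p = 3e-27. Its second probe set was not called. Tbx20, of the T-box family, read 3.08, 3.23 and 3.1 at day 2 against 8.65, 9.86 and 9.61 at day 4. Kdr, the VEGF receptor of the progenitors that give heart, vessels and blood, had 5.24, 5.16 and 5.22 on the day 2 arrays and 10.33, 9.86 and 10.03 on the day 4 arrays, a 29.2-fold rise (4.87 ± 0.15, adjusted p = 2.5e-27). Pdgfra, which with Kdr marks cardiac mesoderm, read 4.3, 4.23 and 4.39 at day 2 against 9.99, 10.54 and 10.27 at day 4. For both receptors the arrays of a day lay close together and the days were far apart. Gata6 (3.92 ± 0.15) and Gata4 (2.56 ± 0.15), zinc finger factors of heart and endoderm, Bmp4 (3.59 ± 0.12), Isl1 (2.08 ± 0.21) of the second heart field and Hand1 (1.13 ± 0.14) rose. Later heart factors were not called: Nkx2-5 at 0.05 ± 0.11, Mef2c at 0.45 ± 0.21 and Gata5 at 0.15 ± 0.15. Wt1, a factor of the epicardium and the urogenital ridge, was the member that fell, by 2.81.

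Of 18 genes of the sarcomere and smooth muscle 7 rose and 2 fell, with a median of 0.65. Tnnc1, troponin C of heart and slow muscle, read 4.59, 4.3 and 5.03 at day 2 against 7.93, 8.88 and 8.51 at day 4, a change of 3.8 ± 0.27, adjusted p = 2.8e-15. Tnni1 (2.52), Myl7 (2.42), the atrial light chain, Actc1 (2.37) and Myl4 (1.86) rose. Tnnt2, cardiac troponin T, stayed near background, with 3.02, 3.35 and 2.75 on the day 2 arrays and 3.19, 3.89 and 3.72 on the day 4 arrays and an adjusted p of 0.118. Myh6, the alpha heavy chain of cardiac myosin, fell, with 6.69, 6.59 and 6.85 on the day 2 arrays and 3.74, 3.27 and 3.73 on the day 4 arrays. Only 1 of its 2 probe sets was called. Ttn (-1.24) was called lower on 1 of 6 probe sets, and not without day 2 array 1.

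Blood and vessel genes were mixed. Of 26 progenitor genes 7 rose and 2 fell, with a median of 0.03, and 7 lay under the lower quartile on all 6 arrays. Runx1, required for definitive blood, read 3.41, 3.72 and 3.24 at day 2 against 7.1, 7.8 and 7.44 at day 4, a change of 3.99 ± 0.2, adjusted p = 4.2e-20. Etv2, the ETS factor that switches mesoderm to blood and endothelium, had 6.73, 6.89 and 6.56 on the day 2 arrays and 9.18, 8.03 and 8.53 on the day 4 arrays, a change of 1.85 ± 0.2, adjusted p = 1.3e-10. Tal1 (1.64), Lmo2 (1.83), Gata2 (1.29) and Ets1 (2.4) rose with it. Cdh5, the junctional cadherin of endothelium, stood at 3.04, 3.06 and 3.29 on the day 2 arrays and 3.6, 3.54 and 3.42 on the day 4 arrays, all under the lower quartile. The angiopoietin receptor gene Tek changed by -1.69 ± 0.14 and Plvap, of fenestrated endothelium, by -2.21 ± 0.13. The embryonic globins were not called: Hbb-bh1 was at 0.2 ± 0.37, Hba-x at 0.08 ± 0.19 and Hbb-y at 0 ± 0.5, and none of the 6 haem and iron genes was called.

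Many surface receptors of mesodermal and vascular cells rose. Of 23 receptors 16 were higher and 0 lower, with a median of 2.37, and of 16 ligands 5 were higher and 2 lower, with a median of 0.3. The difference between receptors and ligands was not tested. Besides those named above, Pdgfrb (4.06) and Flt1 (2.37), receptors for PDGF and VEGF, rose, while Kit was at 0.99 ± 0.19, just under a 2-fold change. Apln, the ligand of Aplnr, was at 0.04 ± 0.15, and Vegfa, the ligand of Kdr, at 0.36 ± 0.17, neither called. Cxcl12, the ligand of Cxcr4 and Ackr3, fell by 1.84, with both of its probe sets. Kitl, the ligand of Kit, rose by 4.19, Efna1 by 2.7, Slit2 by 2.13 and Vegfc by 1.81.

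Of 15 genes of definitive endoderm and axial mesendoderm 9 rose and 0 fell, with a median of 2.46. Sox17, the SRY-box factor of definitive endoderm, had a log2 signal of 3.85, 4.13 and 4.09 on the day 2 arrays and 9.65, 9.99 and 9.96 on the day 4 arrays, a change of 5.84 ± 0.17, adjusted p = 1.7e-27. Cxcr4, the chemokine receptor by which endoderm is often sorted, had 3.95, 3.98 and 3.84 on the day 2 arrays and 9.62, 9.89 and 9.82 on the day 4 arrays, a change of 5.85 ± 0.18, adjusted p = 3.6e-27. Both were near background on every day 2 array and bright on every day 4 array. Foxa2 (3.19 ± 0.26) and Foxa1 (3.42 ± 0.17), pioneer factors of endoderm, Cer1 (2.93 ± 0.23), a secreted inhibitor of Nodal, BMP and Wnt, and Dkk1 (4.51 ± 0.24), a Wnt inhibitor of the anterior endoderm, rose. Hhex, of the anterior endoderm, was at 0.91 ± 0.17, adjusted p = 1.7e-05, and Chrd, of the node, at -0.15 ± 0.12, below the call.

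Markers of visceral endoderm, which also expresses Sox17, Foxa2 and Cer1, are given beside it. Of 21 genes 7 rose and 3 fell, with a median of 0.25, and the mean log2 signal of the list was 5.53 to 5.57 on the day 2 and 5.81 to 6.28 on the day 4 arrays. The defining secreted products were not called: Afp changed by 0.35 ± 0.39, Ttr by 0.96 ± 0.34 and Apoa1 by -0.23 ± 0.42, with Afp under the lower quartile on every array. Ttr had 3 of its 4 probe sets called higher, although the brightest was just under 2-fold. The endocytic receptor genes Lrp2 (-3.07), Cubn (-1.82) and Amn (-1.24) all fell. Those that rose were led by Spink1 (5.82), a trypsin inhibitor of the gut, Cited1 (2.88) and the basement membrane genes Col4a2 (2.47), Col4a1 (2.4) and Sparc (1.56), which mesenchyme also expresses. The part of visceral endoderm in the rise of Sox17, Foxa2 and Cer1 was not tested.

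Of 22 neuroectoderm genes 1 rose (4.54%) and 5 fell (22.7%), beside 6.84% and 7.33% of all genes, with a median of -0.11, and 7 were under the lower quartile on all 6 arrays. Sox3, an SRY-box factor of neural plate and epiblast, had a log2 signal of 8.95, 8.85 and 8.81 on the day 2 arrays and 5.07, 5.02 and 5.03 on the day 4 arrays, a change of -3.83 ± 0.16, adjusted p = 4.8e-23. Neurod1, a bHLH factor of neurons, read 8.29, 7.94 and 8.1 at day 2 against 3.87, 3.88 and 3.96 at day 4. Pax6, of the forebrain and eye, went from a mean of 4.77 to 3.35, by -1.42, on 1 of 3 probe sets. En2 (-1.51) and Gbx2 (-1.25), of the midbrain and hindbrain, fell from low levels, and Gbx2 was not called without day 4 array 2. Sox1, the first marker of the neural plate, was at -0.57 ± 0.29, under the lower quartile, and Nes at 0.22 ± 0.23, Zic1 at -0.03 ± 0.26 and Six3 at -0.15 ± 0.2 were not called. Ncam1, an adhesion molecule that early mesoderm also carries, was the member that rose, by 1.73.

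Among 12 genes of the surface ectoderm, 4 rose and 1 fell, with a median of 0.05. The risen members were the simple-epithelium keratins Krt8 (3.5), Krt18 (2.8) and Krt19 (1.84), which are not specific to skin, and Sox11 (1.13). Krt8 was among the brighter genes, with 8.83, 8.95 and 8.95 on the day 2 arrays and 11.88, 12.75 and 12.6 on the day 4 arrays. The keratins of the basal epidermis, Krt5 (0.01 ± 0.14) and Krt14 (-0.14 ± 0.14), their regulator Trp63 (-0.37 ± 0.19) and Tfap2a (0.08 ± 0.16) were not called. Grhl2, an epithelial regulator, fell by 1.95, on 1 of 3 probe sets.

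Of 9 trophoblast markers 4 rose and 1 fell, with a median of 0.39, and the mean log2 signal of the list was 4.73 to 4.76 on the day 2 and 6.06 to 6.25 on the day 4 arrays. Plac1, a placental membrane protein, rose by 5.21 and Gata3 by 4.06, while Cdx2 and Hand1 are also streak or mesoderm genes. Elf5 (-0.05 ± 0.16) and Tpbpa (-0.23 ± 0.67), which mark trophoblast stem cells and spongiotrophoblast, were under the lower quartile on all 6 arrays. Of 3 genes of the 2-cell-like state, 1 rose, Tcstv3 (2.01), from near background. The part of trophoblast or 2-cell-like cells in the mesoderm and endoderm results was not tested.

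**Figure D3:**
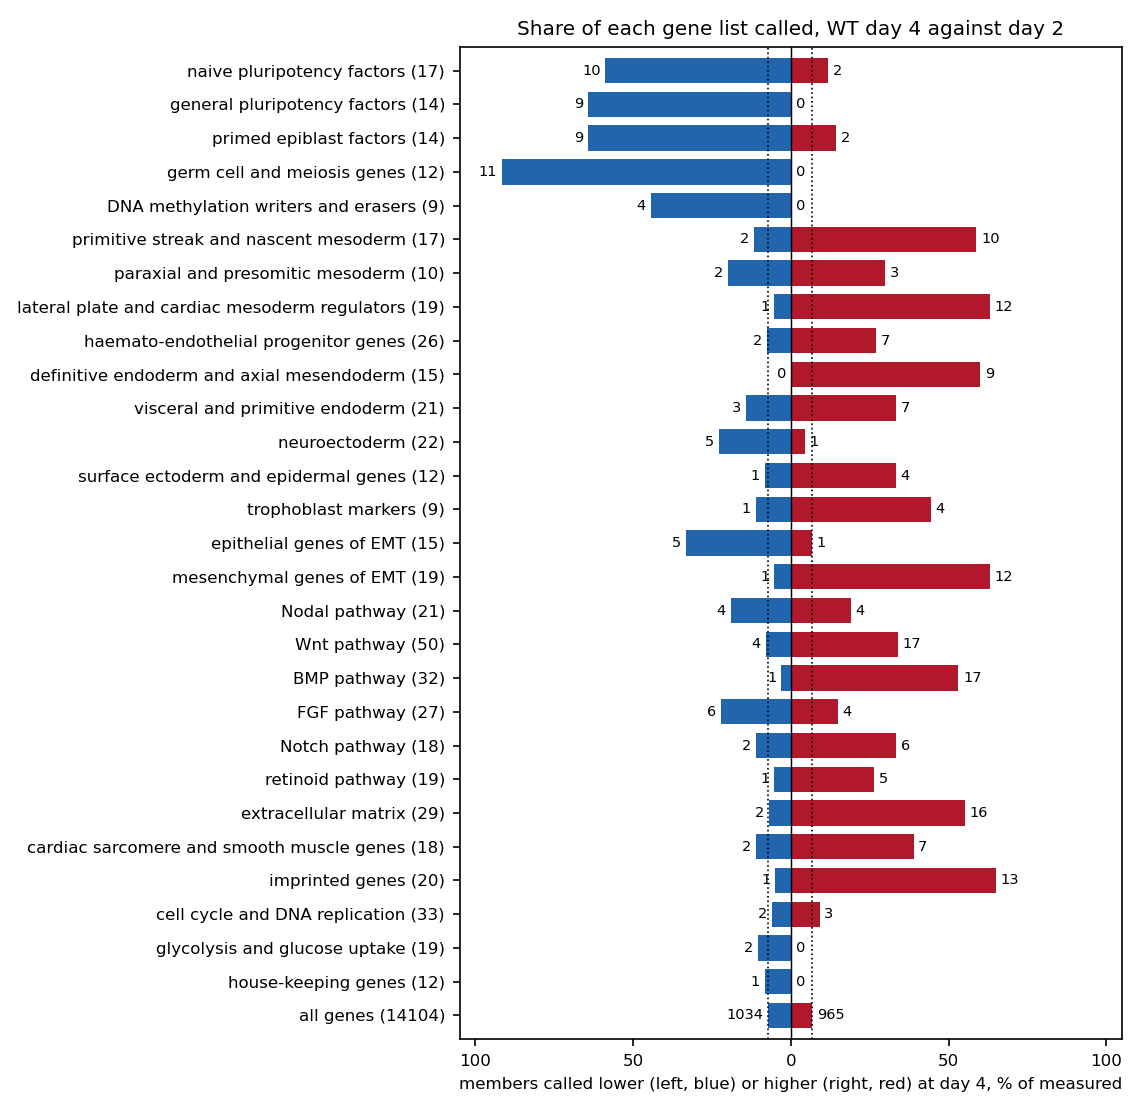
Percent of the measured members of each gene list plotted, called higher (red, right) or lower (blue, left) at day 4 against day 2 in WT EBs, with the number of genes beside each bar and the number measured in brackets. The dotted lines mark the shares over all 14104 genes, 6.84% higher and 7.33% lower, which stand as the last bar. Of the lists plotted, the streak, lateral plate, definitive endoderm, mesenchymal, matrix, BMP and imprinted lists reach furthest right. The naive and general pluripotency, primed epiblast and germ cell lists reach furthest left.

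Streak cells leave the epiblast by a change from epithelial to mesenchymal gene use, and genes of both sides were listed. Whether single cells made this change cannot be read from bulk RNA. Of 19 mesenchymal genes 12 rose and 1 fell, with a median of 2.13. Cdh11 read 4.32, 5.17 and 4.95 at day 2 against 10.94, 11.25 and 11.16 at day 4, a change of 6.3 ± 0.23, adjusted p = 1e-24. Cdh2, the N-cadherin that replaces E-cadherin in mesoderm, had 7.3, 7.39 and 7.4 on the day 2 arrays and 11.15, 10.78 and 11.05 on the day 4 arrays, a change of 3.63 ± 0.15, adjusted p = 1.7e-22. The repressors of E-cadherin rose, Snai2 by 3.95, Zeb2 by 3.67 on all 5 probe sets and Snai1 by 2.13, as did Twist1 (2.15), the intermediate filament Vim (2.17) and the matrix protein Fn1 (2.21). Of 15 epithelial genes 5 fell and 1 rose, with a median of -0.75. By the test against 2-fold 2 were lower. Cdh1, or E-cadherin, had 11.79, 11.68 and 11.75 on the day 2 arrays and 10.31, 10.59 and 10.52 on the day 4 arrays, a change of -1.27 ± 0.09, adjusted p = 3.6e-15. Epcam (-1.2), Ocln (-1.14) and the splicing factor Esrp1 (-1.25) fell similarly, and Marveld3, of tight junctions, by 2.22. The claudins Cldn6 (-0.24 ± 0.15) and Cldn7 (-0.29 ± 0.15) were not called. Dsp, of desmosomes, rose by 3.38. The simple-epithelium keratins, listed with the surface ectoderm, rose too. At day 4 Cdh1 and Cdh2 were both well above the array's median.

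Of 29 genes of the extracellular matrix 16 rose and 2 fell, with a median of 1.07. Beside the basement membrane collagens, Col9a1 (4.21), on 1 of 2 probe sets, Fbn2 (3.43), Fbln2 (3.04), Has2 (2.43), which makes hyaluronan, and Col5a1 (2.27) were among those that rose. Spon1 (-1.96) and Col18a1 (-1.47) fell. Col1a1, the fibrillar collagen of connective tissue, was only just called, at 1.06 ± 0.2, adjusted p = 1.9e-05, and lost its call in 8 of 17 alternative settings, among them those without day 2 array 1, day 4 array 2 or day 4 array 3. By the test against 2-fold 10 matrix genes were higher.

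Of 21 genes of the Nodal pathway 4 were higher, 4 lower and 13 not called, with a median of 0.18. Whether its roles differ was not tested. Its ligand Nodal had a log2 signal of 9.92, 9.82 and 9.81 on the day 2 arrays and 7.55, 7.46 and 7.43 on the day 4 arrays, a change of -2.37 ± 0.12, adjusted p = 1.8e-19, and Gdf3, a related ligand, fell by 2.75. The feedback inhibitors that Nodal induces fell too: Lefty1 read 10.38, 10.22 and 10.34 at day 2 against 6.36, 5.75 and 6.08 at day 4, a change of -4.25 ± 0.18, adjusted p = 1.7e-22, and Lefty2 changed by -2.96 ± 0.3, adjusted p = 2.9e-11. Of the co-receptors, Tdgf1, or Cripto, was at -0.62 ± 0.28, and Cfc1, or Cryptic, read 6.11, 6.3 and 6.49 at day 2 against 10.56, 11.05 and 10.81 at day 4, a change of 4.51 ± 0.2, adjusted p = 4.6e-22. The transducers Smad3 (1.27 ± 0.17) and Foxh1 (1 ± 0.16) were called near the 2-fold line, and neither passed the test against 2-fold itself. Foxh1 lost its call in 6 of the settings, among them those without day 2 array 2, day 4 array 1 or day 4 array 3. Cer1, which inhibits Nodal, rose.

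Wnt genes of every role were among those that rose. Of 50 members 17 were higher and 4 lower, with a median of 0.51. Among 12 ligands, Wnt5a, of the noncanonical branch, read 4.13, 3.5 and 3.13 at day 2 against 9.34, 9.58 and 9.53 at day 4, a change of 5.9 ± 0.2, adjusted p = 1e-25, on all 4 probe sets. Wnt2 (3.57), Wnt5b (2.05), Wnt3 (1.93), which opens the streak, and Wnt4 (1.65) rose, and Wnt8a (-1.98) fell. Wnt11 was at 0.72 ± 0.17. Of 19 receptors and agonists, Rspo3 (4.25) and its receptor Lgr5 (3.9) rose with Fzd1 (2.17) and Fzd4 (1.82), while Rspo1 (-2.27) and Lgr4 (-1.53) fell. Of 9 targets 4 rose and 0 fell: Axin2, a direct readout of beta-catenin, had 6.61, 6.68 and 6.43 on the day 2 arrays and 8.52, 8.33 and 8.43 on the day 4 arrays, a change of 1.85 ± 0.15, adjusted p = 5.4e-14, and Nkd1 (3.44), Sp5 (2.74) and Lef1 (1.46) rose. Notum, another target, was at 0.32 ± 0.16. Of 10 antagonists 3 rose, Dkk1 (4.51), Frzb (3.98) and Cer1, and Sfrp2 (-2.25) fell.

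Of 32 BMP genes 17 rose and 1 fell, and the median was the highest of the 6 pathways, at 1.08. Of 6 ligands 4 rose and 0 fell. Bmp4, which induces mesoderm, had a log2 signal of 6.85, 6.53 and 6.45 on the day 2 arrays and 10.16, 10.24 and 10.19 on the day 4 arrays, a change of 3.59 ± 0.12, adjusted p = 2.5e-26. Bmp2 read 4.48, 4.46 and 4.31 at day 2 against 9.78, 9.78 and 9.81 at day 4, Bmp5 rose by 5.17 on all 3 probe sets and Bmp7 by 1.5. The 3 day 4 arrays lay close together for Bmp2 and Bmp4. The transducer Smad1 rose by 1.54, and Smad5 (1.03) and the receptor Bmpr2 (1.12) by about 2-fold, of which Smad5 lost its call in 4 of the settings and Bmpr2 by the test against 2-fold. Of 9 targets 6 rose: Id1, a direct target, read 8.71, 8.88 and 8.81 at day 2 against 10.97, 10.67 and 10.8 at day 4, a change of 2.01 ± 0.11, adjusted p = 2.3e-18, Id3 rose by 1.95, Msx1 by 4.3 and Msx2 by 5.41, the last on 1 of 2 probe sets. Tbx2 rose by 3.6. Id2 was at -0.31 ± 0.22 and Id4 fell by 1.22. Of 9 inhibitors 4 rose: Smad6 (4.51), Bambi (2.89) and Bmper (5.62), all of them feedback inhibitors or modulators, and Cer1, while Fst and Chrd did not pass.

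Of 27 FGF genes 4 were higher and 6 lower, with a median of -0.09. Of 11 feedback targets 4 fell and 1 rose: Dusp6, the phosphatase of ERK, had 10.71, 10.78 and 10.77 on the day 2 arrays and 10.01, 8.53 and 9.34 on the day 4 arrays, a change of -1.46 ± 0.18, adjusted p = 2.7e-09, and Etv5 (-1.91), Spry4 (-1.39) and Spry1 (-1.07) fell, while Egr1 (1.66) rose. Spry2 (-0.22 ± 0.13) and Etv4 (-0.77 ± 0.16) were not called. Among 11 ligands Fgf4, which stem cells secrete, read 9.68, 9.15 and 9.37 at day 2 against 6.28, 5.74 and 5.98 at day 4, a change of -3.4 ± 0.19, adjusted p = 2.5e-18 with all 4 probe sets lower, and Fgf5 fell. Fgf10 (3.98), of the second heart field and limb, and Fgf3 (3.55) rose. The receptor Fgfr2 rose by 1.31, a call lost without day 4 array 2, and Fgfr1 was at 0.77 ± 0.12.

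**Figure D4:**
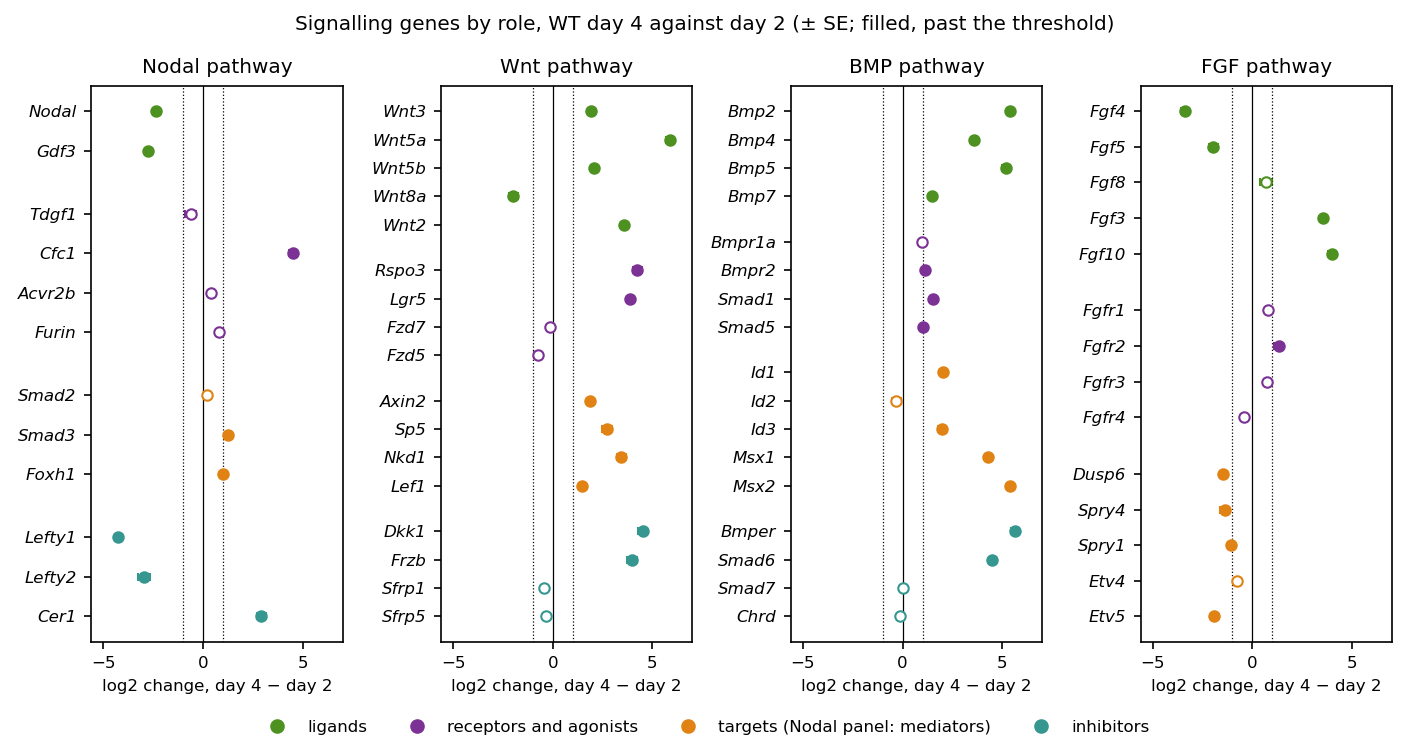
Log2 change from day 2 to day 4 (horizontal axis, ± SE from limma) of selected genes of 4 signalling pathways in WT EBs, coloured by role, with filled points past the threshold and dotted lines at a 2-fold change. Nodal, Lefty1 and Lefty2 lie left of 0, most of the plotted BMP genes right of it, and the FGF feedback targets Dusp6, Spry4, Spry1 and Etv5 left of it. Not plotted are Id4 of the BMP genes, called lower, and the FGF feedback target Egr1, called higher. Rspo1, Lgr4 and Sfrp2 of the Wnt genes, called lower, are not plotted either.

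Of 18 Notch genes 6 rose and 2 fell, with a median of 0.25. The targets Hey2 (2.28), Nrarp (1.78), Hey1 (1.49) and Hes1 (1.37) rose, and Hes5, the target in neural cells, was at -0.3 ± 0.12. Notch1 (1.09) was called on 1 of 2 probe sets and lost its call in 4 of the settings, among them those without day 2 array 2 or day 4 array 1. Of 19 retinoid genes 5 rose and 1 fell, with a median of 0.13. Of the 11 for degradation, receptors and targets, 3 rose, and 5 did without day 4 array 1. Cyp26a1 had 4.77, 4.64 and 4.65 on the day 2 arrays and 11.28, 10.15 and 10.77 on the day 4 arrays, a change of 6.05 ± 0.2, adjusted p = 7.8e-26. Aldh1a2, which makes retinoic acid in the mesoderm, rose by 1.77, the binding protein gene Crabp1 by 2.3, and the homeobox genes Meis2 and Meis1 by 2.73 and 2.31. Rarb, a direct target of retinoic acid, was at 0.63 ± 0.25, adjusted p = 0.029, under the lower quartile at day 2, and Rdh10 at 0.07 ± 0.14.

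Hox genes pattern the body axis in the order of their clusters. Of 10 genes of paralogue groups 1 to 4, with a median of 0.81, 4 rose, Hoxb2 (4.05), Hoxb1 (3.97), Hoxd1 (3.1) and Hoxb3 (2.48). Hoxb1, the earliest of its cluster, read 3.55, 3.39 and 3.63 at day 2 against 8.08, 6.77 and 7.64 at day 4. Of 9 genes of groups 5 to 9, with a median of 0.24, 4 rose, Hoxb6 (2.16), Hoxd9 (1.98), Hoxd8 (1.33) and Hoxb5 (1.24), the last not without day 4 array 2. None of the 4 measured genes of groups 10 to 13 was called, with changes from -0.38 to 0.18. No measured Hox gene was called lower. Whether the groups differ was not tested. Of 11 T-box genes 4 rose and 0 fell (Tbx20, Tbx2, Eomes and Tbx3), with a median of -0.06. Of 6 GATA genes 4 rose and 0 fell (Gata3, Gata6, Gata4 and Gata2), with a median of 1.93 and Gata1, of red cells, at -0.28 ± 0.13.

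Genes of the germ line and meiosis, several of which stem cells transcribe, nearly all fell. Of 12 measured 11 were called lower and 0 higher, with a median of -2.02, and the mean log2 signal of the list went from 6.61 to 6.78 on the day 2 arrays to 4.24 to 4.61 on the day 4 arrays. Mael had a log2 signal of 8.35, 8.29 and 8.39 on the day 2 arrays and 4.21, 3.35 and 3.63 on the day 4 arrays, a change of -4.61 ± 0.24, adjusted p = 1.7e-19. Dazl, an RNA-binding protein of germ cells, had 7.02, 6.77 and 7 on the day 2 arrays and 3.48, 2.9 and 3.34 on the day 4 arrays, a change of -3.69 ± 0.25, adjusted p = 6.9e-16. Ddx4, the Vasa helicase, read 7.79, 7.77 and 7.93 at day 2 against 5.16, 4.54 and 4.72 at day 4, and Sycp3, of the synaptonemal complex, 9.64, 10.06 and 10.01 at day 2 against 7.47, 6.58 and 7.06 at day 4. The groups did not overlap for any of these 4. Taf7l, a testis paralogue of a TFIID subunit, changed by -2.28 ± 0.19, and Stra8, which starts meiosis, by -1.41 ± 0.21. Tex15, at -0.33, was the member not called, and was named here after its value was seen.

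Many germ-line promoters carry an E-box, CACGTG, a site that the factor Mga with its partner Max can bind, so the promoters were searched for these letters. The RefSeq table (build GRCm38.p6) held a promoter for 9 of the 12 genes. In the 250 bases before the start, 6 of the 9 held CACGTG, a palindrome that reads alike on both strands: Ddx4, Hormad1, Mael, Sycp1, Sycp3 and Taf7l. The share was 6.05% over all 27025 promoters, 8.04% over the measured genes with an entry, 6.34% over those called higher and 9.31% over those called lower. The promoters of Dazl, Stra8 and Rec8 held none, and of 8 general pluripotency factors and 13 streak genes with an entry, 0 did, while 2 of 13 lateral plate regulators (15.4%) did. The 100 bases before the start are shown for 4 genes whose E-box lies closest to it, 5′ to 3′ in the direction of the gene, with the E-box in capitals. Hormad1, of the meiotic chromosome axis, Sycp1 and Rec8 were called lower too and are named for their promoters.
Ddx4 (chr13:112652311-112652410, minus strand): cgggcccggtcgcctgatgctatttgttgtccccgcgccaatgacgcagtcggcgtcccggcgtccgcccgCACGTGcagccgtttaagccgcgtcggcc
Hormad1 (chr3:95559577-95559676, plus strand): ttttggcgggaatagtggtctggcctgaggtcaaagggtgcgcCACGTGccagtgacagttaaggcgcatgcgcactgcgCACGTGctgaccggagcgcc
Sycp3 (chr10:88459487-88459586, plus strand): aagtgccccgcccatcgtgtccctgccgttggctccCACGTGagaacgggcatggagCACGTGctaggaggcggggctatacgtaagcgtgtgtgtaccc
Taf7l (chrX:134476491-134476590, minus strand): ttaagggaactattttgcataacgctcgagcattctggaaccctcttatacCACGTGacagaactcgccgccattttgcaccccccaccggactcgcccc
The E-box began 29 bases before the start in Ddx4 and 49 in Taf7l, while Sycp3 had 2, at 64 and 43 bases, and Hormad1 had 2, at 57 and 20. The letters are a description and do not show that a factor was bound. The search also covered a TCF motif (CTTTGA), the octamer (ATTTGCAT), a T-box motif (AGGTGTGA), a GATA motif (TGATAA) and a retinoid direct repeat, each on both strands. The octamer stood in 1.61% of all promoters, in 1.33% of those of measured genes, in 1.32% of those of genes called higher and in 2.98% of those called lower. The TCF motif stood in 10% and 10.8% of the higher and lower groups, beside 11.1% of the measured genes and 14% of all, and the GATA motif in 4.49% and 3.6%, beside 4.05% and 8.16%. By list, GATA stood in 4 of 13 lateral plate promoters (30.8%), 1 of 13 streak promoters and 0 of the germ-line and pluripotency promoters. For TCF the counts were 3 of 13, 2 of 13, 2 of 9 germ-line and 1 of 8 pluripotency promoters. The octamer stood in 2 of 13 streak promoters and the T-box motif in 1 of 9 germ-line promoters, and each in 0 of the other lists. Differences between lists were not tested. The T-box motif stood in 1.14% of all promoters and in 1 of the 757 of genes called higher, and the retinoid repeat in 2 of all 27025.

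Enzymes that write and erase DNA methylation were lower in 4 of 9 and higher in 0, with a median of -0.7. Dnmt3l, the cofactor of the de novo enzymes, had 9.76, 9.16 and 9.43 on the day 2 arrays and 7.28, 7.05 and 7.06 on the day 4 arrays, a change of -2.32 ± 0.21, adjusted p = 1.7e-12. Dnmt3a changed by -1.74 ± 0.14, Dnmt3b by -1.38 ± 0.19 and the dioxygenase Tet1 by -1.41 ± 0.13. The maintenance enzyme Dnmt1 was at -0.28 ± 0.09. Dnmt3b stayed bright at day 4, with a mean of 11.52.

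Of 20 imprinted genes 13 rose, 1 fell and 6 were not called, with a median of 1.47. Of the 13, Igf2r (1.01) lost its call in 7 of the settings. Igf2, a fetal growth factor, had 6.09, 5.69 and 6.22 on the day 2 arrays and 11, 12.57 and 12.21 on the day 4 arrays, a 60.8-fold rise (5.93 ± 0.25, adjusted p = 1.3e-22). Day 4 array 1 was the lowest of the 3. The domesticated retroelement gene Peg10 (3.04), the zinc finger gene Peg3 (2.7), the placental growth restrictor Phlda2 (2.63), Mest (2.61), the cell cycle inhibitor Cdkn1c (2.25) and Dlk1 (2.19) rose, and Ascl2 (-1.27) fell. Meg3 was at 0.23 ± 0.16.

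No replication gene was called, which needs a change of at least 2-fold, so smaller changes are not excluded. Of 18, 0 were called in either direction, with a median of -0.31 and changes from -0.9 to 0.37. Pcna read 13.09, 13.12 and 13.14 at day 2 against 13.11, 13.06 and 13.07 at day 4. Among 15 cyclins, inhibitors and Myc genes 3 rose and 2 fell, with a median of 0.23: the D-type cyclin Ccnd2 rose by 3.54 on all 7 probe sets, Ccne2 by 1.57 and Cdkn1c as above, while Ccne1 fell by 1.5 and the tumour suppressor Cdkn2a by 1.84. Ccnd1 (0.34 ± 0.17), Myc (0.58 ± 0.11) and Mycn (-0.12 ± 0.14) were not called. Of 19 genes of glycolysis 2 fell and 0 rose, with a median of -0.51, and 4 fell without day 2 array 2 or without day 4 array 2. The 2 were Pdk1 (-2.25), which keeps pyruvate from the mitochondria, and Pfkm (-1.23). The glucose transporters Slc2a1 (0.38 ± 0.14) and Slc2a3 (0.58 ± 0.09) were not called. Of 12 house-keeping genes 1 was called, Hprt (-1.03 ± 0.11), and not without day 2 array 3 or without day 4 array 2. Their median was -0.08, with Actb at 0.13 ± 0.05 and Tbp at -0.22 ± 0.08. Of 9 Mage genes 4 rose and 2 fell, with a median of 0.43: Maged1 (1.46), Maged2 (1.24), Mageh1 (1.2) and the imprinted Ndn (1.48) rose, and Magel2 (-1.77) fell with Mageb16.

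The same step was then compared with the SCR and KD lines, which share no arrays with WT. In KD most of the genes that changed in WT changed too, and in SCR fewer did. In KD 975 genes (6.91%) rose and 910 (6.45%) fell. Of the 965 genes that rose in WT, 786 rose in KD, 81.5% of the WT genes and 80.6% of the KD genes, and of the 1034 that fell 752 fell in KD, 72.7% and 82.6%. In SCR 432 genes (3.06%) rose and 235 (1.67%) fell. Of the WT genes 214 rose in SCR too, 22.2% of the WT and 49.5% of the SCR genes, and 154 fell, 14.9% and 65.5%.

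The difference between the changes was tested directly, as the change in WT minus that in the other line, at the same threshold. Against SCR, 621 genes (4.4%) had a positive and 869 (6.16%) a negative difference. Among the 965 genes that rose in WT, 517 rose by more than in SCR and 7 by less, and of the 1034 that fell 577 fell by more and 5 by less. Against KD, 20 genes (0.142%) had a positive and 77 (0.546%) a negative difference. Of the WT genes that rose 6 rose by more than in KD and 11 by less, and of those that fell 38 fell by more and 5 by less. In probe sets the counts were 2720 against SCR and 151 against KD. Without the third array of every group they were 2445 and 21, and without WT day 4 array 2 the count against KD was 250, so the number that differed from KD turns on single arrays.

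Pou5f1 shows the contrast between the lines. In SCR its mean was 11.54 ± 0.03 at day 2 and 11.54 ± 0.06 at day 4 (SD, n = 3), and in KD 11.68 ± 0.05 and 8.16 ± 0.45. The WT change minus that of SCR was -2.49 ± 0.3 (adjusted p = 8.6e-09), and its difference from KD was 1.04 ± 0.3 (adjusted p = 0.062). Nanog rose in SCR, by 1.47, and Pou3f1 stayed high there, at 9.79 at day 4. None of the 9 general pluripotency factors that fell in WT fell in SCR, and all 9 fell in KD. Over all genes, 14.9% of those that fell in WT fell in SCR and 72.7% in KD. Mael fell in all 3 lines, by 4.61 in WT, by 1.19 in SCR and by 4.7 in KD, with a difference of WT from SCR of -3.43 ± 0.34.

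Of the 10 streak genes that rose in WT, 10 rose in KD and 1 in SCR. Over all genes, 81.5% of those that rose in WT rose in KD and 22.2% in SCR. Of all 17 measured streak genes 3 were called higher in SCR. Mesp1 in SCR had means of 4.65 and 4.69, and Mixl1 of 5.06 and 5.32. Eomes, the member that rose in both WT and SCR, changed by 2.13 in SCR, and its difference from WT was 0.97 ± 0.36, just under the 2-fold limit (adjusted p = 0.038). Of the 12 lateral plate regulators that rose in WT, 12 rose in KD and 0 in SCR, and of the 9 endoderm genes, 9 and 0. The median change of the streak list was 0.45 in SCR and 1.46 in KD, and that of the endoderm list 0.08 and 2.68. Hand2 in SCR read 3.86 ± 0.15 and 3.91 ± 0.32, a difference from WT of 6.2 ± 0.27. Sox17 read 2.97 ± 0.22 and 2.7 ± 0.22, a difference of 6.12 ± 0.24. Igf2 changed by 1.08 in SCR. At day 12 SCR read 12.18 for Igf2 and 7.35 for Aplnr, beside 12.98 and 8.72 in WT. Day 12 levels of the other genes of this paragraph are not given, and whether SCR made the same step later was not tested.

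**Figure D5:**
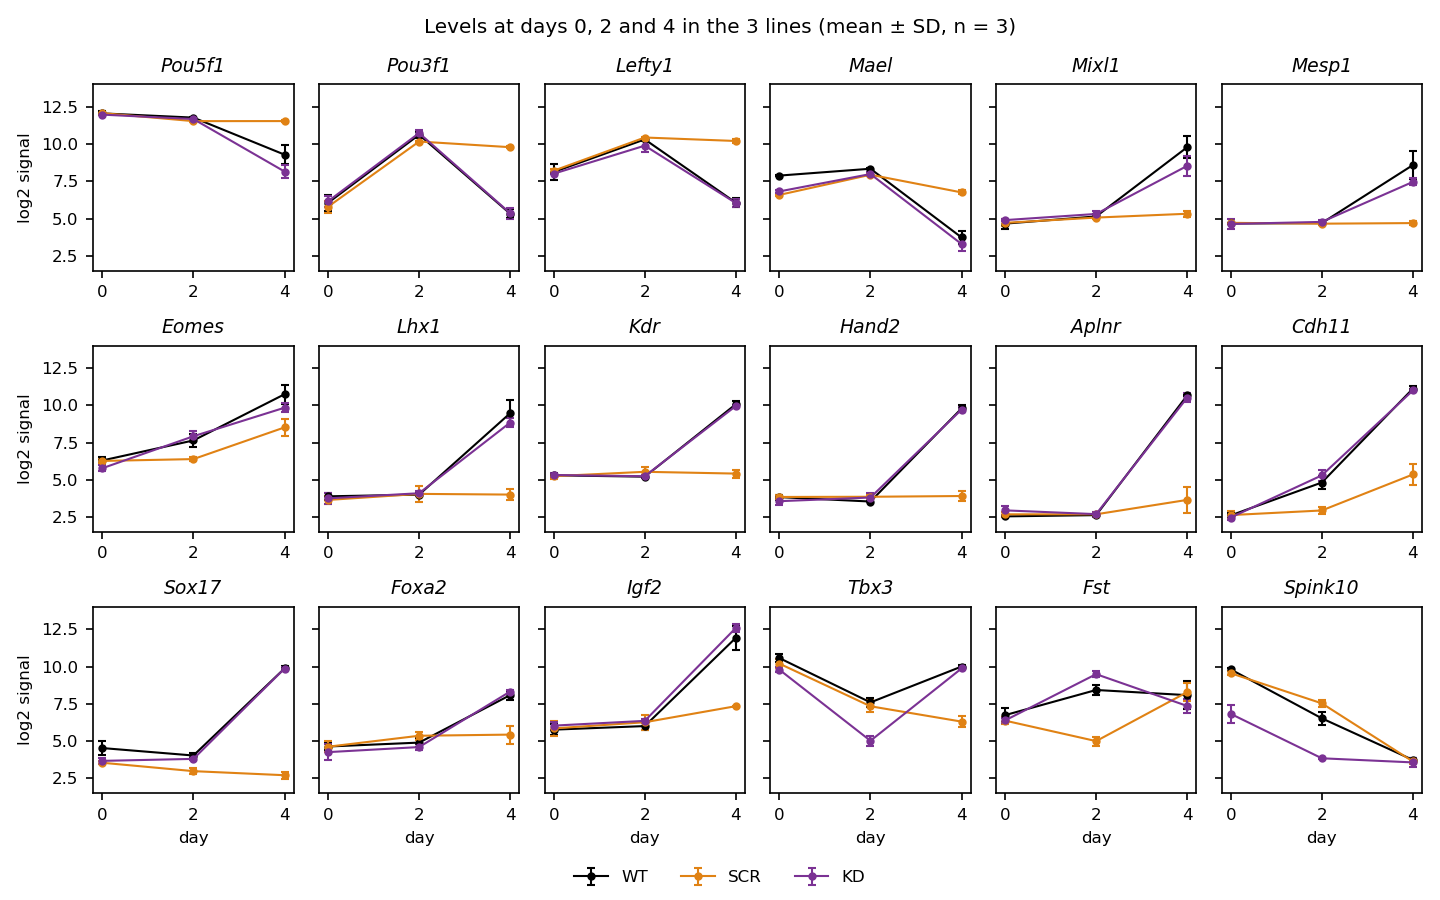
Log2 signal on the vertical axis against day 0, 2 and 4 for 18 genes in WT (black), SCR (orange) and KD (purple), as the mean ± SD of 3 arrays. WT and KD run together for most genes, SCR stays near its day 2 level for Pou5f1, Mixl1, Kdr, Hand2 and Sox17, and Tbx3, Fst and Spink10 differ between WT and KD.

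WT and KD differed for a few genes, and for several of them the lines already differed at day 2. Tbx3 rose from 7.59 to 10 in WT and from 5.01 to 9.87 in KD, a difference of -2.45 ± 0.27 (adjusted p = 1.5e-07). Spink10, a protease inhibitor gene, had means of 6.52 and 3.73 in WT and of 3.84 and 3.56 in KD. Mixl1 (1.42 ± 0.34, adjusted p = 0.018) and Mesp1 (1.21 ± 0.31, adjusted p = 0.028) rose by more in WT. The WT day 4 arrays of both genes spread widely, so these pooled SEs and p-values understate the uncertainty of the 2 differences. Fst, the activin-binding inhibitor, fell by 2.14 in KD and was at -0.35 in WT. SCR differs from WT in carrying a vector and in its history as a separate line, and these cannot be told apart here. KD also carries an integrated shRNA vector and is a separate line. The cause of the differences between the lines was not tested. The labels give no array batch.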

How the data were processed

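RNA of the EBs was hybridised to Affymetrix mouse genome expression arrays. The authors background-corrected, quantile-normalised and summarised the probes by RMA and deposited log2 signals of 30939 probe sets. The submitters' processing notes name Affymetrix Expression Console, Partek 6.6 and RMA, and the study's methods name RMA in R. No scanner files were used, so a detection call was not available, and the main fit applied no filter on low values to the deposited probe sets.

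The deposited log2 values were fitted with limma 3.58.1 in R 4.3.3, with 1 mean for each of the 18 groups of 54 arrays (36 residual degrees of freedom) and Benjamini-Hochberg adjustment over all probe sets. A call needed an adjusted p under 0.05 and a 2-fold change. Changes were compared between lines as differences of contrasts in the same fit. The platform annotation paired 25596 probe sets with 1 symbol, 685 with several and 4658 with none, and symbols were updated to RefSeq. A gene was read from its probe set with the highest mean over all arrays (14104 genes). Probe sets without a single symbol, 447 higher and 120 lower among those with none, were counted but not named.

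The genes named were the 12 genes that rose and the 12 that fell by most among those called, where the arrays did not overlap (clone names left out), in each list and role the key members and up to 5 past the threshold in each direction, the 6 largest differences from SCR and from KD in each direction, and Mageb16. The members and the lists were chosen with earlier results of these data known. The number of arrays limits the precision. The fit was tested on simulated data, and the alternatives were another normalisation, a filter on dim probe sets, other variance models and weights, other sample sets, a replicate block, each array left out, the mean of all probe sets of a gene and a test against the 2-fold threshold itself.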

Additional observations from a re-analysis of the deposited data

Results flagged for a closer look

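The change from day 2 to day 4 differed between lines by limma's interaction test, at an adjusted p under 0.05 and a 2-fold difference, for 2720 probe sets between WT and SCR and for 151 between WT and KD. As the change in WT minus that in SCR, the largest positive differences were Rgs5 (7.17), Nrp1 (7.16), Aplnr (7.08), Spink1 (6.69), Hand2 (6.2) and Sox17 (6.12). The largest negative ones were Ugt8a (-5.36), Pim2 (-5.13), Pou3f1 (-4.92), Nrcam (-4.63), Gpm6a (-4.6) and Slc27a2 (-4.32), of which Nrcam and Gpm6a encode neuronal surface proteins and Slc27a2 a fatty acid transporter.

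As the change in WT minus that in KD, the largest positive differences were Fst (1.79), Btla (1.5), Gstk1 (1.44), Mixl1 (1.42), Fut9 (1.42) and Slc39a8 (1.41). The negative ones were Spink10 (-2.52), Tbx3 (-2.45), Serpinf1 (-2.35), Apobec2 (-2.19), Plet1 (-2.18) and Tbx4 (-2.14).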

How the results depend on the processing

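Of the 242 named genes past the threshold, 193 stayed past it in each of the 17 settings in which they were recomputed and none reversed. The call was lost most often by Col1a1 (8 settings), Igf2r (7) and Foxh1 (6), and the test against the 2-fold threshold itself took it from 46. Of the measured list members, 261 were called, 206 by that test and 245 by the mean of all probe sets of a gene. The test against 2-fold lowered several list counts, among them matrix genes higher from 16 to 10, FGF feedback targets lower from 4 to 1, epithelial genes lower from 5 to 2, neuroectoderm genes lower from 5 to 2 and Mage genes higher from 4 to 2. Among the brightest 60% of probe sets, which hold fewer members by construction, Wnt ligands higher went from 5 to 2, trophoblast markers from 4 to 1, and T-box, GATA and both Hox groups from 4 to 2. Probe sets called higher, 2171, fell to 1442 among the brightest 60% of probe sets and to 1060 by the test against 2-fold, which was stricter by construction, and those called lower, 1766, came to 792 by that test. Leaving out 1 array at a time gave 2079 to 2314 higher and 1703 to 1859 lower. The count that differed between WT and SCR, 2720, was 1807 among the brightest 60%, 951 by the test against 2-fold and 2629 to 2898 with 1 array left out. That between WT and KD, 151, moved most: it was 229 with array weights, 4 by the test against 2-fold, 21 without the third array of every group, an alternative chosen after seeing the data, and 115 (without WT day 2 array 1) to 250 (without WT day 4 array 2) with 1 array left out, and the cause was not tested. The arrays' numbers did not pair them across days: deviations of same-numbered arrays from their group means correlated at 0.016, 0.012 and 0.054. With the replicate number within each line as a block the counts were 2171 higher, 1766 lower, 2720 and 151, as without it. The counts higher, lower and against SCR were also unchanged under another variance model, so equal counts do not show whether blocking matters. For genes near the background, signal over background limits the size of a change.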
